A study of Mus musculus with 45 samples.

Results

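The antioxidant defence genes of the red cell are taken here as 9 named genes: Prdx2, Cat, Gpx1, Gpx4, Sod1, Sod2, Txnrd2, Nfe2l2 and Keap1. They were listed by name for their known function, with earlier results of these data known, and all 9 were found among the 24333 genes of the deposited table. The values are gene scores from single-nucleus ATAC-seq, an assay in which a transposase cuts open chromatin. A gene score sums the fragments in and around a gene, so it measures the accessibility of the locus and not the amount of RNA or protein. Whether the score accounts for gene length is not given in the sources used here, so levels are compared between samples and not between genes.

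The nuclei came from erythroblasts sorted for Ter119, a surface protein of red cell precursors, from 3 WT and 3 KO libraries of the Stag2 gene in Mus musculus. The STAG2 protein is part of cohesin, a ring that shapes chromosomes by making DNA loops. Mice of both genotypes had received pIpC, per the design text. Samples were taken 6 to 8 weeks after the final pIpC dose. The promoter that drove the deletion, the strain and the age of the mice are not given in the sources used here, and no label says whether each library came from 1 mouse, so p-values measure the spread between libraries. Each nucleus carried a class and a cluster from the authors. The classes were Early, Int and Late, and Int is read here as intermediate.

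Red cell precursors make hemoglobin, whose iron and bound oxygen give rise to superoxide and hydrogen peroxide. Superoxide dismutases turn superoxide into hydrogen peroxide. Catalase, glutathione peroxidases and peroxiredoxins then reduce the peroxide, and the thioredoxin and glutathione systems recharge the peroxiredoxins and glutathione peroxidases. Nrf2, encoded by Nfe2l2, activates many of these genes under oxidative stress, and Keap1 holds Nrf2 back by marking it for degradation.

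The promoter sequences of the 4 genes on which most of the KO comparison turned are shown first, so that the letters at each start site can be set beside the accessibility. They are the 250 bases before the transcription start in RefSeq GRCm38.p6, printed 5′ to 3′ on the strand of the gene. Txnrd2 lay at chr16:18426167-18426416 on the plus strand and Prdx2 at chr8:84969372-84969621 on the plus strand. Cat lay at chr2:103485154-103485403 on the minus strand and Nfe2l2 at chr2:75704664-75704913 on the minus strand. Capitals mark matches, on either strand, to 3 motifs: a GATA site (AGATAA or TGATAA), the core of the antioxidant response element (TGACNNNGC), and a CACCC-type site (CCNCNCCC), the kind of sequence bound by Kruppel-like factors.
Cat: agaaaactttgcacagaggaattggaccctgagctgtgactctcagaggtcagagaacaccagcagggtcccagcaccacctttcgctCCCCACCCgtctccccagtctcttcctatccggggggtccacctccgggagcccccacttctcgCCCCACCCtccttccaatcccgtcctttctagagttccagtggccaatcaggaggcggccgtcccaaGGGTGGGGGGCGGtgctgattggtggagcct
Txnrd2: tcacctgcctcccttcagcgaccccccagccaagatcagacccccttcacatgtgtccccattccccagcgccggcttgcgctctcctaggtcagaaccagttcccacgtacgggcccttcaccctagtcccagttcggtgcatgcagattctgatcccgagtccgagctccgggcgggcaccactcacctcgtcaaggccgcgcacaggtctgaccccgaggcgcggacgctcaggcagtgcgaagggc
Prdx2: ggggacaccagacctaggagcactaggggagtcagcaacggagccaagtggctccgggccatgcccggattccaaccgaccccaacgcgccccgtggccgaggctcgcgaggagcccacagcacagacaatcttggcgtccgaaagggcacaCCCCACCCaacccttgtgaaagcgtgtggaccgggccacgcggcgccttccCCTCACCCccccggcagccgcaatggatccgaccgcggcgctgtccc
Nfe2l2: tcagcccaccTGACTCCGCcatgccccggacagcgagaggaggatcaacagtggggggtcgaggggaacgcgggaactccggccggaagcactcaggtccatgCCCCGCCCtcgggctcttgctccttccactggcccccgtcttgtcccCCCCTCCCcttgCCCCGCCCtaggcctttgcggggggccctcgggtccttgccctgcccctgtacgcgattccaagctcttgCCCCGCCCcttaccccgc

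All 9 genes matched an entry of the RefSeq promoter table. The Cat window held 4 CACCC-type matches, of which the nearest pair overlapped, and the Prdx2 window held 2. The Nfe2l2 window held 4 CACCC-type matches and 1 antioxidant response element core, 240 bases before the start. The Txnrd2 window held none of the 3 motifs in these letters. CACCC-type matches occurred in 6 of the 9 windows and in 45.9% of 32851 promoter windows of the same length. The response element core occurred in 2 of 9, Nfe2l2 and Sod1, against 10.2% of all windows, and in Sod1 it overlapped a CACCC-type match. A GATA site occurred in 1 of 9, Keap1, against 16.6%. The 9 windows held between 42% GC (Gpx1) and 70.4% GC (Nfe2l2), beside a median of 52.4% over all windows.

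The WT libraries held 5819 to 6990 nuclei and the KO libraries 4617 to 4925, with 61655588 to 66286151 and 46782673 to 62592468 fragments per library. In Int nuclei the median nucleus had 10121 to 12877 fragments in WT and 13911 to 14998 in KO, and in Late nuclei 5693 to 6812 in WT and 6043 to 6503.5 in KO. Among Late nuclei the share of fragment ends that fell in peaks (median over nuclei) was 60.3% to 61.8% in KO and 64.1% to 66.4% in WT, with no overlap. The median doublet enrichment, a score that is higher where a nucleus resembles a mix of nuclei, was 0.622 to 0.80 in WT and 0.886 to 1.14 in KO, also with no overlap, and without nuclei of high enrichment the calls in all, Int and Late nuclei held. Libraries shared 725 cell barcodes, carried by 4.34% of nuclei, and without those nuclei the same number of the 9 genes passed in each comparison below (4, 3, 3 and 0 in all, Int and Late nuclei and between classes). Of 15 erythroid marker genes in the table, none was at 0 in every library. The mean of their scores lay at the 97.1th percentile of single genes, a rank between genes that may depend on gene length. Their summed score was 3064 to 3314 in WT and 2687 to 2893 in KO over all nuclei, and 13 of the 15 were lower in KO past the threshold. Summed scores of markers of other lineages were higher in KO in all nuclei, for example 108 to 114 against 81.8 to 93.9 for 10 myeloid genes. Whether either shift has a part in the results was not tested. The score over Stag2 itself was 64.2, 65.7 and 65.9 in WT and 61.0, 65.1 and 62.4 in KO, which overlapped (log2 difference -0.05 ± 0.05 SE, limma adjusted p = 0.348). A score summed over a whole locus need not show the loss of an exon, so it does not check the genotype labels.

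The first comparison asked whether accessibility at these genes differed between KO and WT over all nuclei. In KO, 4 of the 9 genes were lower past an adjusted p of 0.05 and none was higher: Txnrd2, Nfe2l2, Prdx2 and Keap1. Among all 17682 genes tested, 43.3% passed, 29.1% higher and 14.2% lower in KO, so the lower calls among the 9 genes stand beside a table in which many genes passed. Among genes with a mean score of at least 20, which all 9 exceed, 22.6% were lower. The median log2 difference of the 9 genes was -0.07, and that of all genes tested was 0.10, or -0.04 among genes with a mean of at least 20. With quantile normalization both medians were -0.02, and with cyclic loess they were -0.012 and -0.0033, so the medians differ on some scales only. For 5 of the 9 genes every KO library lay below every WT library, which held for 19.3% of all genes. Shares of this kind, here and below, are over all genes tested and were not taken among genes with a mean of at least 20. The share lower past the threshold was larger among those genes, so the 19.3% may be too low a background for the 9.

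Txnrd2, which encodes the mitochondrial thioredoxin reductase (chr16:18426417-18479073, plus strand), had scores of 115, 110 and 101 in WT and 91.5, 87.0 and 94.3 in KO. The groups did not overlap, and the log2 difference was -0.25 ± 0.05 (SE, n = 3 libraries each, limma adjusted p = 0.000807), which is 15.9% lower. It passed under all 19 alternative settings of the analysis. Nfe2l2, the gene for Nrf2 (chr2:75675513-75704663, minus strand), had scores of 151, 149 and 148 in WT and 134, 133 and 135 in KO. The spread within each genotype was small, and the log2 difference was -0.16 ± 0.04 (limma adjusted p = 0.00487). Keap1 (chr9:21229730-21239332, minus strand), the inhibitor of Nrf2, had scores of 150, 146 and 152 in WT and 138, 137 and 140 in KO, a log2 difference of -0.11 ± 0.04 (limma adjusted p = 0.0295). With quantile normalization Keap1 was -0.05 (adjusted p = 0.303) and with cyclic loess -0.04 (adjusted p = 0.366). Nfe2l2 was -0.09 with each (adjusted p = 0.0625 and 0.0839).

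Prdx2, the abundant peroxiredoxin of red cells (chr8:84969622-84974811, plus strand), had scores of 375, 358 and 373 in WT and 325, 344 and 337 in KO. All KO libraries were below all WT libraries, with a log2 difference of -0.14 ± 0.05 (limma adjusted p = 0.0381). Prdx2 over all nuclei passed under 9 of 19 alternative settings and Keap1 under 10 of 19. Prdx2 was -0.08 with quantile normalization (adjusted p = 0.0518) and -0.07 with cyclic loess (adjusted p = 0.132). Both calls were lost when any 1 library but WT replicate 2 was left out, with adjusted p from 0.058 to 0.114 for Prdx2 and from 0.0574 to 0.0823 for Keap1.

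The other 5 genes did not pass over all nuclei. The cytosolic copper-zinc superoxide dismutase Sod1 (chr16:90220742-90226324) had scores of 144, 146 and 148 in WT and 135, 140 and 142 in KO, which did not overlap (adjusted p = 0.159). Sod2, its mitochondrial manganese counterpart (chr17:13007839-13040063), had scores of 80.1 to 92.4 in WT and 78.0 to 83.4 in KO. The deposited interval of Sod2 ran 21944 bases past its RefSeq end, so the score need not be that of the RefSeq gene alone. Gpx1, the cytosolic glutathione peroxidase (chr9:108339080-108340342), had scores of 370 to 393 in WT and 353 to 386 in KO. Gpx4, which reduces lipid peroxides in membranes (chr10:80047166-80056439), had scores of 162 to 177 in WT and 163 to 177 in KO. Cat, the gene for catalase (chr2:103453904-103485153, minus strand), had scores of 90.5 to 108 in WT and 100.4 to 104 in KO. The groups overlapped for Sod2, Gpx1, Gpx4 and Cat, and the 95% intervals of the 5 log2 differences all held 0. They reached from -0.18 (Sod2) to 0.17 (Cat).

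**Figure D1:**
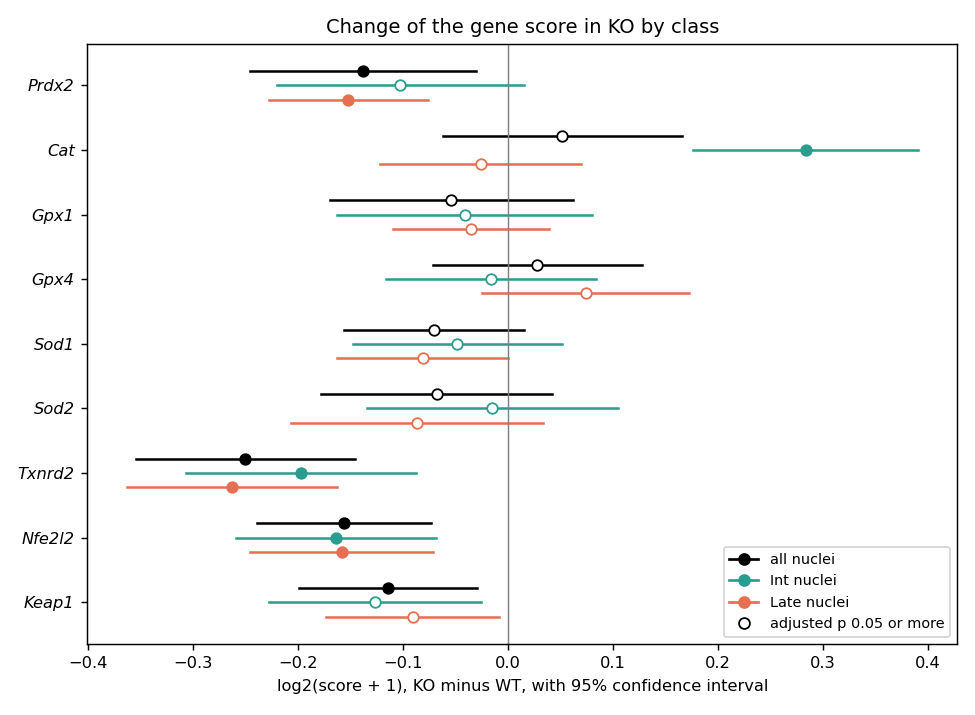
Log2 difference of the gene score, KO minus WT (horizontal axis, log2(score + 1)), for the 9 genes in all nuclei, Int nuclei and Late nuclei, with 95% confidence intervals from limma over 3 libraries per genotype. Filled points passed an adjusted p of 0.05: Cat stands at 0.28 in Int nuclei and near 0 in Late nuclei, and Txnrd2 and Nfe2l2 lie below 0 in each fit.

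An average over all nuclei mixes the classes, so a change within nuclei and a change of class shares cannot be told apart in it. Int nuclei made up 32.6% to 57.2% of a WT library and 44.2% to 48.8% of a KO library. The comparison was therefore repeated within Int and within Late nuclei. Early held fewer than 50 nuclei in 3 libraries and was not tested.

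In Int nuclei catalase accessibility was higher in KO, while Txnrd2 and Nfe2l2 were lower. Int nuclei of the 2 genotypes lay mostly in different clusters. Within C5, the main cluster of Int nuclei that held both, none of the 3 passed (limma adjusted p = 0.544, 0.663 and 0.195), with differences of 0.20, -0.21 and -0.31. Only 0.89% of 19438 genes passed in C5, so the loss was not particular to these 3 genes. How the clusters were made is not given, so a lost call there is no sign that the genotypes are alike. In the whole Int class these were the 3 of 9 genes past the threshold, beside 19.8% of 19465 genes tested, 12.7% higher and 7.1% lower. Of genes with a mean of at least 20, 13.3% were lower. The score of Cat was 66.2, 62.6 and 64.0 in WT and 75.6, 81.3 and 78.3 in KO. Each KO library was above each WT library, an order that 22.8% of all genes showed. The log2 difference was 0.28 ± 0.05 (limma adjusted p = 0.000224), which is 21.7% higher. With nuclei matched between libraries on fragment number it was 0.31 (adjusted p = 0.000129), and without nuclei of high doublet enrichment it was 0.26 (adjusted p = 0.00103). It was 0.30 with quantile normalization (adjusted p = 0.000613) and 0.31 with cyclic loess (adjusted p = 0.000538). Centring each library on its median over the genes tested, which put the median gene at -0.12, gave 0.11 (adjusted p = 0.391). Erythroid markers summed to 2804 to 3064 in WT and 2606 to 2756 in KO among these nuclei, and 9 of 15 were lower.

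Txnrd2 in Int nuclei was 90.7, 91.5 and 88.7 in WT and 79.4, 72.7 and 84.2 in KO. The lowest value was that of KO replicate 2, and without it the log2 difference of -0.20 ± 0.05 (limma adjusted p = 0.00883) became -0.14 (adjusted p = 0.109). Nfe2l2 was 161, 153 and 155 in WT and 140, 137 and 141 in KO, a log2 difference of -0.16 ± 0.05 (limma adjusted p = 0.012). Its call was lost in 6 of 20 alternatives: quantile normalization (-0.12, adjusted p = 0.056), cyclic loess (-0.10, 0.107), no variance trend (0.105), C5 alone (0.195), without KO replicate 2 (0.069) and without WT replicate 1 (0.0588). Keap1 was 144, 137 and 153 in WT and 130, 132 and 135 in KO, and Prdx2 was 345, 338 and 358 against 321, 321 and 327. Both showed groups that did not overlap, and neither passed (adjusted p = 0.0682 and 0.219). Keap1 in Int nuclei passed under 4 of 20 alternative settings: median centring (-0.30, limma adjusted p = 0.0331), without nuclei of high doublet enrichment (-0.16, 0.0323), without WT replicate 2 (-0.16, 0.0257) and with a replicate block (0.0491). In all, 4 of 9 genes had every KO library below every WT library, against 14.4% of all genes. Gpx1, Gpx4, Sod1 and Sod2 overlapped between genotypes, with log2 differences from -0.05 to -0.02.

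In Late nuclei, 3 genes were lower in KO and none was higher: Txnrd2, Nfe2l2 and Prdx2. The table as a whole again held many calls, 51.4% of 15886 genes, with 32.9% higher and 18.5% lower (27.2% lower among genes with a mean of at least 20). Txnrd2 was 127, 126 and 118 in WT and 106, 98.5 and 104 in KO. No KO library reached the lowest WT library, and the log2 difference was -0.26 ± 0.05 (limma adjusted p = 0.000431). Nfe2l2 was 147, 145 and 138 in WT and 127, 129 and 130 in KO (log2 difference -0.16 ± 0.04, limma adjusted p = 0.00525). Prdx2 was 394, 387 and 395 in WT and 348, 363 and 347 in KO (log2 difference -0.15 ± 0.04, limma adjusted p = 0.00287). Prdx2 and Txnrd2 in Late nuclei passed under 19 of 20 alternative settings, all but C2 alone. The erythroid marker sum of these nuclei was 3390 to 3506 in WT and 2936 to 3032 in KO, and 13 of 15 markers were lower, Gata1 (-0.18) and Klf1 (-0.23) among them. Marker sums of other lineages were higher in KO here too, but for the megakaryocyte genes, which overlapped. They were 99.5 to 100.1 against 72.7 to 80.8 for myeloid genes, and 54.0 to 59.2 against 35.7 to 40.0 for stem and progenitor genes.

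Most Late nuclei of WT lay in cluster C3 and those of KO in C2, so the Late comparison sets different clusters against each other. C2 held 58 to 68 nuclei per WT library and 2134 to 2490 per KO library, and genotypes were compared within it as an alternative chosen after seeing the data. Of its nuclei 97.4% were KO. How the clusters were made is not given in the sources used here, and if they rest on the same accessibility, the WT nuclei of C2 were chosen for their likeness to KO nuclei. A lost call within C2 can therefore not be read as a sign that the genotypes are alike. With limma 0 of the 9 genes and 0 of 17360 genes passed, so the loss was not particular to the 3 genes, while 1 of the 9 (Keap1) and 2190 of all genes had an unadjusted p under 0.05. Txnrd2 was 81.8, 100.8 and 93.5 in WT and 105, 99.4 and 105 in KO. The groups overlapped, and the log2 difference of 0.17 ± 0.15 (limma adjusted p = 0.658) had a 95% interval from -0.18 to 0.51. This interval held 0 but not the value of the whole Late class (-0.26). Prdx2 was 354, 319 and 359 in WT and 348, 363 and 349 in KO (0.04 ± 0.10, adjusted p = 0.883). Nfe2l2 was 126, 138 and 118 in WT and 126, 129 and 129 in KO (0.01 ± 0.13, adjusted p = 0.9746). Both overlapped, and their intervals, -0.19 to 0.27 and -0.29 to 0.31, held 0 as well as the values of the whole Late class. Keap1 was 108, 83.7 and 94.3 in WT and 148, 141 and 145 in KO (0.61 ± 0.14, adjusted p = 0.235), the opposite direction to that in Late nuclei as a whole. Its interval, 0.27 to 0.95, held neither 0 nor the value of the whole Late class (-0.09). Sod1, Cat and Gpx4 changed sign as well (0.47, 0.01 and -0.23), none of them past the threshold.

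Catalase in Late nuclei was 130, 126 and 126 in WT and 133, 122 and 122 in KO. The groups overlapped, with KO replicate 1 the highest library of all, and the 95% interval of the log2 difference ran from -0.12 to 0.07. Sod1 and Keap1 had every KO library below every WT library without passing (139, 137 and 139 against 145, 149 and 145 for Sod1, adjusted p = 0.0865, and 147, 141 and 144 against 154, 155 and 152 for Keap1, adjusted p = 0.0613). With Txnrd2, Nfe2l2 and Prdx2 that made 5 of 9 genes, against 22.7% of all genes. Gpx4 was 164, 170 and 182 in WT and 174, 187 and 180 in KO, Gpx1 was 422, 419 and 427 against 412, 422 and 403, and Sod2 was 84.6, 90.6 and 99.6 against 85.5, 84.4 and 88.1. These 3 genes overlapped between genotypes. Gpx4 passed as higher with quantile normalization (0.13, limma adjusted p = 0.0286), with cyclic loess (0.13, 0.022) and without WT replicate 3 (0.12, 0.0464).

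**Figure D2:**
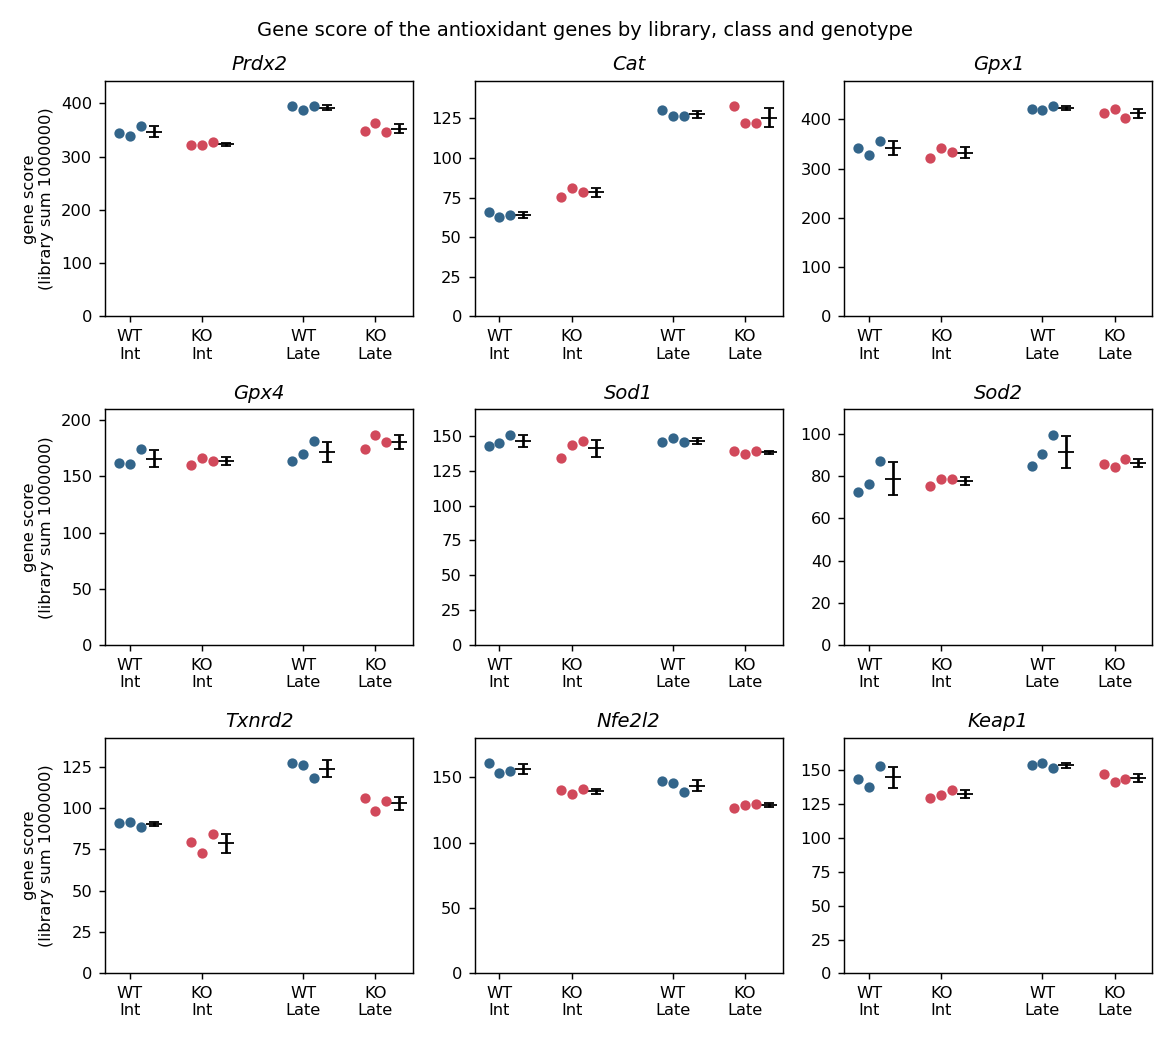
Gene score of each gene (vertical axis, each library rescaled to a sum of 1000000 over genes, from 0) in Int and Late nuclei of the 3 WT (blue) and 3 KO (red) libraries, with the mean and SD in black. Cat in WT sits between 62.6 and 66.2 in Int nuclei and between 126 and 130 in Late nuclei, and its KO points are apart from WT in Int nuclei and among them in Late nuclei.

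The scale used between libraries bears on these small differences. The median log2 difference over all genes in all nuclei was 0.10 as scaled by the authors, and it moved by -0.11 with quantile normalization and by -0.15 with median centring. In Int nuclei median centring moved it by -0.18. The share of calls that were higher in KO was 67.1% in all nuclei as scaled and 46.9%, 54.0% and 35.4% with quantile normalization, cyclic loess and median centring. In Int nuclei it was 64.2% against 50.7%, 57.5% and 24.4%, and in Late nuclei 64.0% against 46.5%, 52.5% and 47.9%. Measured from the median gene, Cat in Int nuclei was 0.23 as scaled, 0.32 with quantile normalization, 0.31 with cyclic loess and 0.23 with median centring. Median centring moves every gene of a library by the same amount. On this measure its values must equal those as scaled, so they are no separate support. Txnrd2 in Late nuclei was -0.32 as scaled and with median centring, -0.18 with quantile normalization and -0.19 with cyclic loess. Nfe2l2 in Late nuclei was -0.21, -0.08, -0.09 and -0.21 in the order as scaled, quantile, loess and median centring. Its adjusted p was 0.0654 with quantile normalization and 0.0808 with cyclic loess, so its call holds on some scales only.

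The next comparison set the classes against each other within each library, as a description, because the classes may rest on the same accessibility data. Cat had the largest Late minus Int difference of the 9 genes. On the log2 scale it was 0.966, 1.004 and 0.970 in the WT libraries, and 0.80, 0.58 and 0.63 in those of KO. Every KO library was below every WT library. As ratios of the mean scores, Late stood 1.99-fold over Int in WT and 1.60-fold in KO. Cat lay between the 97.3th and 99.7th percentile of all 15873 genes in each library. Txnrd2 was next, at 0.45 ± 0.04 in WT and 0.38 ± 0.07 in KO (SD, n = 3), and the 2 genotypes overlapped.

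The other genes differed less between the classes. Gpx1 was higher in Late nuclei of all 6 libraries, by 0.30 ± 0.05 in WT and 0.31 ± 0.04 in KO. Prdx2 (0.18 ± 0.03 and 0.13 ± 0.05), Sod2 (0.22 ± 0.03 and 0.15 ± 0.04) and Gpx4 (0.05 ± 0.03 and 0.14 ± 0.02) were also higher in Late in all 6 libraries. Keap1 was higher in 5 of 6 and Sod1 in 3 of 6. Nfe2l2 was the only member lower in Late in all 6 libraries, by -0.12 ± 0.04 in WT and -0.12 ± 0.03 in KO. Over all genes the median difference was between -0.12 and -0.02 in the 6 libraries, and 39.7% to 47.7% of genes were higher in Late nuclei, so Nfe2l2 lay near the median gene.

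**Figure D3:**
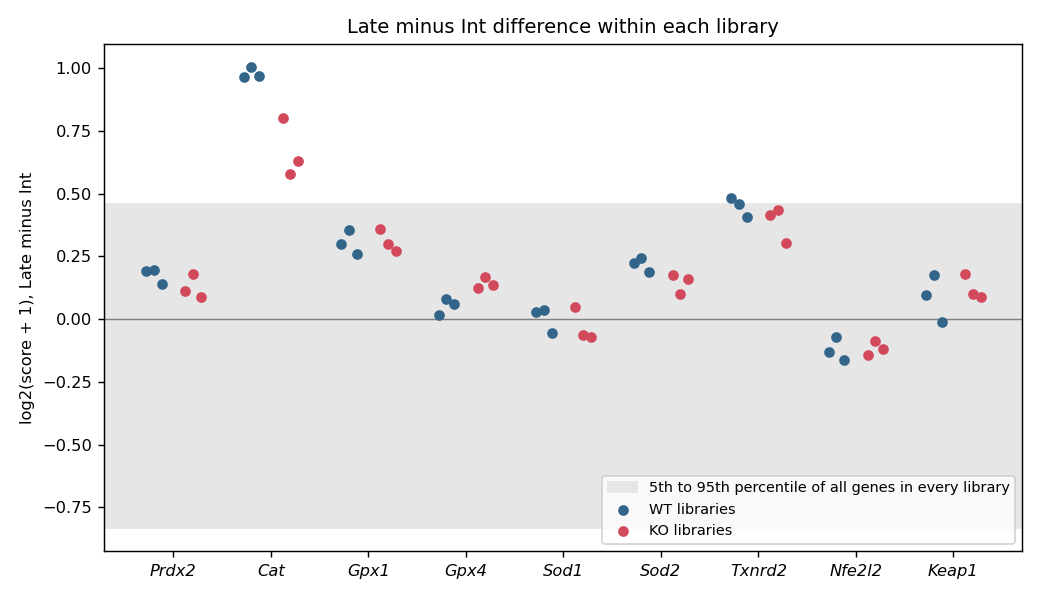
Late minus Int difference of log2(score + 1) (vertical axis) for the 9 genes, 1 point per library, WT in blue and KO in red, with the 5th to 95th percentile of all genes shaded where it is shared by all libraries. Cat lies above the band in all 6 libraries, with the KO points (0.58 to 0.80) below the WT points (0.966 to 1.004), and Nfe2l2 is below 0 in all 6.

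Whether the KO effect differed between the classes was tested on those within-library differences. None of the 9 genes passed in the limma fit, beside 35 of 15873 genes (0.221%), while 1 of the 9 and 2799 of all genes had an unadjusted p under 0.05. That gene was Cat, with a difference of the KO effect of -0.31 ± 0.07 (limma, unadjusted p = 0.00175, adjusted p = 0.0783). Its 95% interval was -0.46 to -0.16. For Cat the call depended on the setting, and it passed in 3 of 19 alternatives: a minimum mean of 20 (adjusted p = 0.0368), nuclei weighted by fragments (0.048) and a variance trend on the mean level (0.0026). Over the 19 its adjusted p ranged from 0.0026 to 0.279. For 3 of the 9 genes (Cat and Sod2 lower in KO, Gpx4 higher) the genotypes did not overlap, which held for 23.4% of all genes. The intervals of the other 8 genes held 0, from -0.19 (Txnrd2) to 0.20 (Gpx4) at their ends.

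The clusters within each class differed between genotypes. Int nuclei of WT lay mostly in clusters C6, C9 and C11, and those of KO mostly in C8 and C10, with C5 holding both. The small cluster C4 (143 nuclei, 51.7% Int and 51.7% KO) also held both, with fewer than 50 nuclei in every library. Late nuclei lay mostly in C3 in WT and in C2 in KO. Cluster levels are given as a description over libraries with at least 50 nuclei of the cluster. Depth differed too, with a median of 42253.5 fragments per nucleus in C7, 21159.5 in C8 and 17356 in C9. It was 15384 in C10, 14791 in C11 and 4716.5 to 6474.5 in C5, C6, C2 and C3. Whether depth has a part in the order of levels was not tested. Cat was lowest in WT nuclei of C7, the mainly Early cluster (58.6 over 2 libraries, beside 65.4 in the 1 KO library), in C9 of WT (58.8 ± 2.80) and in C5 of WT (60.3 ± 2.92), whose ranges overlapped. It was highest in C3 of WT (128 ± 2.97), C2 of WT (128 ± 33.2, libraries from 94.3 to 161) and C2 of KO (126 ± 5.58), which overlapped too. Between them stood C10 of KO at 85.8 ± 4.03, whose 3 libraries were above the 3 of C8 of KO (73.9 ± 0.647). The WT Int clusters were at 66.1 ± 1.35 in C11 and 73.3 ± 8.16 in C6. Every library of C10 was above every library of every WT Int cluster.

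Prdx2, Gpx1, Gpx4 and Sod2 all had their lowest levels in C7, the cluster with the most fragments per nucleus. Prdx2 was 215 in WT and 203 in KO there, against 393 ± 3.09 in C3 and 353 ± 8.73 in C2 of KO. C3 of WT and C5 of WT (394 ± 10.5) overlapped at the top of the Prdx2 order. Gpx1 stood at 175 in C7 of KO and 197 in C7 of WT, and ran through 302 ± 16.8 in C9 and 345 ± 17.9 in C11 to 424 ± 2.34 in C3. Gpx4 was lowest in C7, at 109 in KO and 114 in WT, and stood at 191 ± 1.25 in C5 of KO. Sod2 was 43.5 in C7 of KO and 50.9 in C7 of WT, and 91.6 ± 7.89 in C3 of WT. Most neighbours in these 2 orders overlapped, with 2 of 11 steps apart for each. The small WT part of C2, 190 nuclei, had the highest Gpx1, Gpx4 and Sod2 means of all, but its libraries spread widely (151 to 255 for Gpx4).

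Txnrd2 was highest in C3 of WT (125 ± 4.83), then in C2 of KO (103 ± 3.29), with no overlap between them or with C11 of WT (94.7 ± 1.69) below. C2 of KO (99.4 to 105) did overlap C2 of WT (81.8 to 100.8) and C5 of WT (63.6 to 107), whose means were lower. The lowest Txnrd2 mean was that of C5 of KO (70.6 ± 8.07). Nfe2l2 was highest in C5 of WT (177 ± 3.96), apart from the next, C6 of WT (160 ± 8.92), and lowest in C2 (127 ± 9.77 in WT and 128 ± 1.62 in KO). Of the 11 steps between neighbours in the order, 1 was free of overlap for Keap1 and 2 were for Sod1. Keap1 was highest in C11 of WT (156 ± 7.21) and lowest in C2 of WT (95.3 ± 12.1). Sod1 was highest in C6 of WT (156 ± 5.77) and lowest in C2 of WT (113 ± 59.0), whose libraries spread widely.

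**Figure D4:**
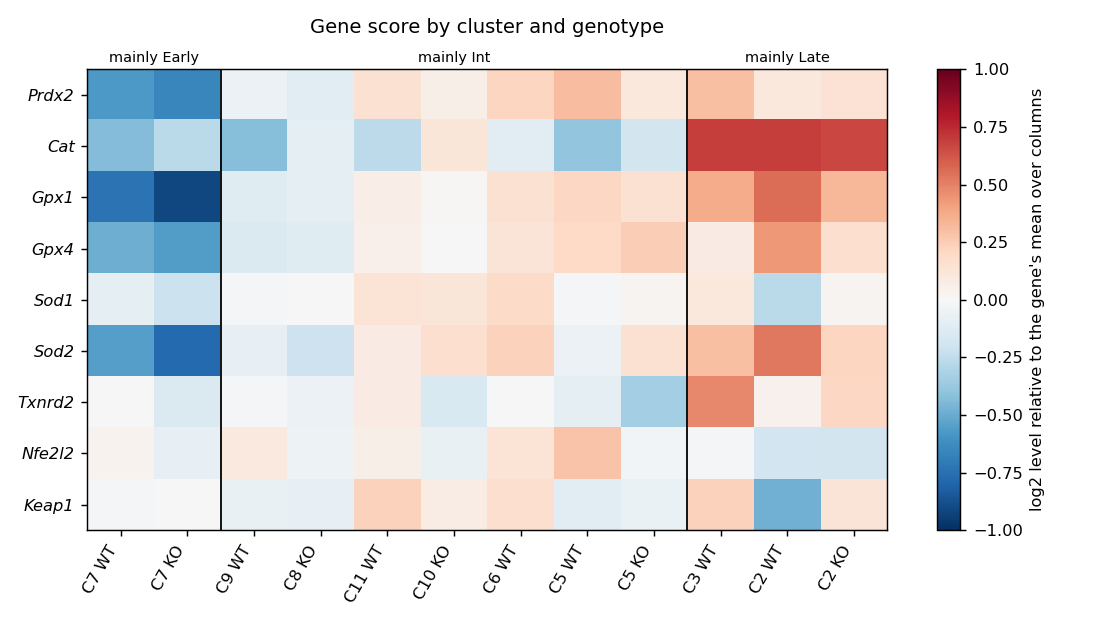
Level of the 9 genes in each cluster and genotype, coloured by log2 of the mean score relative to the mean of the gene's row, with columns ordered from the mainly Early cluster C7 to the mainly Late clusters C3 and C2. Cat is high in C3 and C2 alone, with means of 126 to 128, while Prdx2, Gpx1, Gpx4 and Sod2 are low in C7. C7 rests on 2 WT libraries and 1 KO library, and the WT part of C2 on 190 nuclei. The clusters also differ in fragments per nucleus, with C7 the deepest.

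Cluster C5 held 628 WT and 1698 KO nuclei, and genotypes were compared within it too. As for C2, a lost call within it cannot be read as a sign that the genotypes are alike. None of the 9 genes passed, beside 0.89% of 19438 genes, while 2 of the 9 and 2599 of all genes had an unadjusted limma p under 0.05. Those 2 were Nfe2l2 and Prdx2. Nfe2l2 was 176, 173 and 181 in WT and 149, 133 and 146 in KO, a log2 difference of -0.31 ± 0.10 (limma, unadjusted p = 0.00813, adjusted p = 0.195). Prdx2 was 390, 387 and 406 in WT and 344, 333 and 350 in KO, a difference of -0.20 ± 0.08 (unadjusted p = 0.0221, adjusted p = 0.287). Cat was 58.9, 63.6 and 58.3 in WT and 64.7, 72.1 and 71.6 in KO, and its difference of 0.20 ± 0.13 had a 95% interval from -0.08 to 0.48 that held both 0 and the value of the whole Int class. The genotypes did not overlap for 4 of the 9 genes (Nfe2l2 and Prdx2 lower in KO, Cat and Sod2 higher), against 19.6% of all genes. Txnrd2 was 107, 79.6 and 63.6 in WT and 73.9, 61.4 and 76.6 in KO and overlapped. Its log2 difference of -0.21 ± 0.18 ran from -0.39 to -0.016 with a library left out.

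Neighbouring genes can share fragments in a gene score, so genes within 100 kb of each member that did not overlap it were examined. Their counts are to be read beside the 29.1% of all genes that were higher and the 14.2% that were lower in all nuclei. Near Txnrd2, Arvcf (-0.32) at 19.3 kb and Tango2 (-0.24) at 82485 bases were lower with it in all nuclei, 2 of 4 tested neighbours, and both were lower in Int and in Late nuclei as well. Gnb1l, 19640 bases away on the other side, and Mir185 did not pass (-0.04 and -0.10). Prdx2 had 19 neighbours, of which 4 were higher and 4 lower in all nuclei. Some of the higher ones, and some of the lower ones, overlap each other, so these are not counts of separate loci. Junb, an AP-1 factor 2098 bases away, was higher (0.21, limma adjusted p = 0.0013), Rnaseh2a on the other side was lower (-0.16), and the erythroid factor Klf1, 64327 bases away, was lower (-0.18). The largest difference was that of Syce2 (-0.64), 82176 bases away.

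Near Cat, 1 of 3 tested neighbours was higher in KO, Abtb2 at 81.2 kb (0.34 in all nuclei and 0.37 in Int nuclei). The nearest, Elf5 at 2915 bases, did not pass (0.17, adjusted p = 0.204). Nfe2l2 had 1 neighbour, Hnrnpa3, which did not pass (-0.10, adjusted p = 0.115). Keap1 had 9, of which 3 were higher and none lower, with Pde4a the largest (0.27). Its nearest, S1pr5, did not pass (-0.03). Around the members that did not pass, Sbno2 was higher 575 bases from Gpx4 (0.30), Grin3b was the largest of its 13 neighbours (0.45), and Tiam1 was higher near Sod1 (0.40), whose nearest neighbour Scaf4 did not pass (-0.11). Nicn1 was lower near Gpx1 (-0.31) while the adjoining Rhoa did not pass (-0.05), and Wtap was lower near Sod2 (-0.13).

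**Figure D5:**
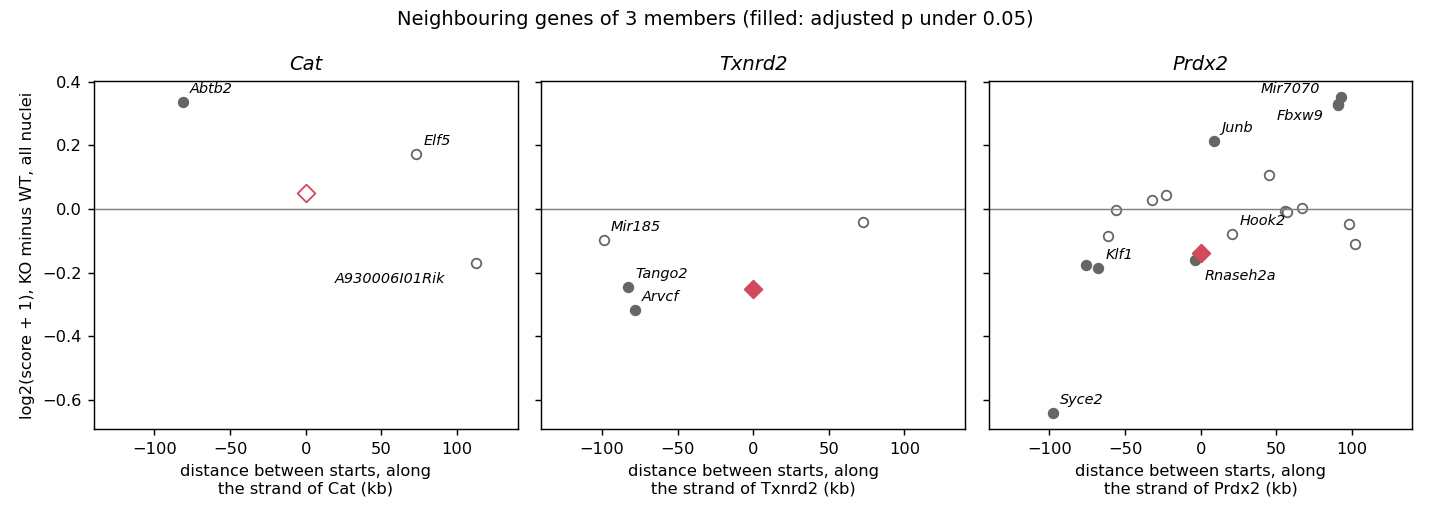
Log2 difference of the gene score, KO minus WT in all nuclei (vertical axis), for tested genes within 100 kb of, and not overlapping, Cat, Txnrd2 and Prdx2, against the distance between gene starts along the member's strand (kb). The member is the red diamond and filled symbols passed an adjusted p of 0.05: the neighbours of Txnrd2 lie on its side of 0, from -0.32 to -0.04, while those of Prdx2 spread from -0.64 to 0.35.

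Further genes of the same pathways were read from the same fits as 2 lists. Of 25 tested genes for thiol and peroxide enzymes outside the 9, 7 were higher and 4 lower in KO over all nuclei, with a median log2 difference of 0.04 beside 0.10 for all genes. These counts are near the shares over all genes, 29.1% higher and 14.2% lower, and are not a result about the list. The lower ones were Ccs, the copper chaperone of Sod1 (-0.23, limma adjusted p = 0.000719), Gclc, the catalytic subunit of the first enzyme of glutathione synthesis (-0.19), Prdx3, the mitochondrial peroxiredoxin (-0.18), and Gsr, glutathione reductase (-0.13). The higher ones included Txnrd3 (0.52), Txn2, the mitochondrial thioredoxin (0.42), Gpx7 (0.39) and Prdx1 (0.32). Gpx7 averaged 4.98 in WT and 6.84 in KO, so it met the filter at a mean of 5 only through KO. Its place among the higher genes is therefore no support for a gain. Prdx1 had scores of 35.4 to 36.9 in WT and 45.0 to 46.1 in KO. Of the genes named here as mitochondrial in the thioredoxin system, Txnrd2 and Prdx3 were lower and Txn2 higher. They were picked from the calls, so this is no result about that system. Prdx5, a further peroxiredoxin of the list, did not pass (0.015, limma adjusted p = 0.862). Txn2 had low scores, 4.73 to 6.17 in WT and 7.27 to 8.59 in KO. In Int nuclei 4 of 26 were higher and 2 lower, beside 12.7% and 7.1% of all genes, and in Late nuclei 8 of 24 were higher and 4 lower, beside 32.9% and 18.5%. Gclc was lower by -0.29 in Late nuclei (93.3 to 95.2 in KO against 114 to 117 in WT).

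Of 24 tested further regulators and targets of Nrf2, 5 were higher and 2 lower over all nuclei, with a median of -0.05. Beside the shares over all genes, 29.1% and 14.2%, these small counts are not a result about the list. The higher ones included Slc7a11, the cystine transporter (0.52), Me1, malic enzyme (0.46), Abcc1, an exporter of glutathione conjugates (0.41), and Maff, a small Maf partner of Nrf2 (0.34). Slc7a11 averaged 4.25 in WT and 6.55 in KO, so it met the filter at a mean of 5 only through KO. Its place among the higher genes is therefore no support for a gain. The lower ones were Sesn1 (-0.19) and Tkt, transketolase (-0.17). In Int nuclei 3 of 24 were higher and 1 lower, beside 12.7% and 7.1% of all genes, and in Late nuclei 3 of 22 were higher and 4 lower, beside 32.9% and 18.5%. No gene of either list passed with limma in C5 or in the test between the classes. Only 0.89% and 0.221% of all genes passed there, so this is not a result about the lists. An unadjusted limma p under 0.05 was found there for 1 of 27 and 2 of 24 genes of the thiol and peroxide list. For the Nrf2 list it was 3 of 24 and 3 of 22, and over all genes 13.4% and 17.6%. The 4 higher genes named here had scores of 3.88 (Slc7a11) to 28.7 (Abcc1) over the libraries, and the lower genes of both lists 54.5 (Gsr) to 144 (Prdx3).

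Patterns over clusters were compared over 33 library-by-cluster means, as a description with no test, since points share libraries and differ in depth. The genes on other chromosomes closest to each member were Nfe2 (r = 0.97) and Fahd1 (0.96) for Prdx2, Ube2f (0.95) and Xpo7 (0.94) for Cat, and Dhrs11 (0.98) and Grina (0.97) for Gpx1. For Gpx4 they were Uspl1 and Eif4a1 (both 0.93), for Sod1 Atp2a2 (0.94) and Tmem175 (0.93), and for Sod2 Mir484 (0.95) and 9530052C20Rik (0.94). For Txnrd2 they were Pcmtd2 (0.84) and Foxo4 (0.83), for Nfe2l2 Ccr9 (0.86) and Homer1 (0.84), and for Keap1 Hsd17b10 and Cbll1 (both 0.89). Among the 36 pairs of members, r was positive for 22. It was highest for Prdx2 with Gpx1 (0.88), Gpx4 with Sod2 (0.85) and Gpx1 with Sod2 (0.82), and lowest for Cat with Nfe2l2 (-0.67).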

How the data were processed

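Single-nucleus ATAC libraries of Ter119+ erythroblasts, 3 Stag2 WT and 3 Stag2 KO, were analysed. The other libraries of the series were not analysed here. The authors deposited gene scores, a signal that sums ATAC fragments around a gene, scaled so that each nucleus summed to between 9999.86 and 10000.12. Cell Ranger and the build mm10 are named in the submitters' processing notes for these samples. The weighting of fragments and the calling of clusters and classes are not given in the sources used here. Coordinates are those of the deposited table, on mm10 (GRCm38), and left ends of 65.3% of its genes were identical to RefSeq GRCm38.p6. The authors' table of nuclei gave counts of fragments per nucleus (at least 1000 in each), the ratio of nucleosomal to free fragments, doublet enrichment and the share of fragment ends in peaks. Doublets were kept in the main analysis. An alternative left out 3081 nuclei (9.04%) with a doublet enrichment above 2.

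Each library was reduced to its mean score per gene, rescaled to a sum of 1000000, filtered at a mean of 5 and tested across all genes on log2(score + 1) with limma 3.58.1 in R 4.3.3 (lmFit, eBayes with trend, two-sided), Benjamini-Hochberg adjusted over all genes tested, with a threshold of 0.05. Fold changes on this scale understate low genes. Differences Late minus Int within a library were tested likewise. A mean needed at least 50 nuclei. Alternatives were other pseudocounts, filters and scalings, no variance trend, weighting or matching of nuclei by fragments, no doublets or shared barcodes, a replicate block, single clusters, and each library left out. Median centring was done after the filter, on the genes kept. On simulated data with 50 changed genes per size, a log2 change of 0.2 was found for 34% of changed genes in all nuclei, 20% in Int and 42% in Late, and a change of 0.5 for 96%, 78% and 96%. Few genes were changed there, while 43.3% of genes passed in all nuclei and 51.4% in Late nuclei. The adjusted threshold is stricter where few genes change, so these shares do not give the sensitivity of the fits above.

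The 9 genes, the pathway and marker lists and the tests were chosen with earlier results of these data known. Named by rule were all members, Stag2, the nearest and the most changed neighbour within 100 kb that did not overlap the member, the 2 most similar genes on other chromosomes, and up to 4 genes of each list in each direction. Tango2, Gnb1l, Mir185, Rnaseh2a, Klf1, Gata1 and Prdx5 were added after their values were seen. One result is not reported here. Python 3.11.15 with numpy 2.4.6 and pandas 2.3.3, and matplotlib 3.10.9, were used.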

Additional observations from a re-analysis of the deposited data

How the results depend on the processing

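Of the calls on single genes, that of Txnrd2 in all nuclei held under all 19 alternatives, those of Txnrd2 and Prdx2 in Late nuclei under 19 of 20, all but C2 alone, and Cat in Int nuclei held under 18 of 20, all but median centring and cluster C5 alone. Nfe2l2 held under 17 of 19 in all nuclei, all but quantile normalization and cyclic loess, under 17 of 20 in Late nuclei, all but these and C2 alone, and under 14 of 20 in Int nuclei. Txnrd2 in Int nuclei held under 16 of 20, all but no filter (adjusted p = 0.0693), no variance trend (0.123), C5 alone (0.663) and without KO replicate 2 (0.109). The alternatives leaving out nuclei of high doublet enrichment or of shared barcodes, the mean-level variance trend, matched nuclei for the difference between classes C2 alone and the alternatives within C5 were chosen after seeing the data.

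The genes passing over all nuclei numbered 4244 with a minimum mean of 20 and 2415 with nuclei weighted by fragments, and 5355 to 8440 with a library left out. The members passing there numbered 6 with median centring, all lower, where Sod1 (-0.22, adjusted p = 0.0289) and Sod2 (-0.21, 0.024) passed, 1 with quantile normalization, 1 with cyclic loess, 2 with no variance trend, 2 with weighting by fragments and 2 (without WT replicate 3 or any KO replicate) to 4 with a library left out, and Cat passed as higher without WT replicate 1 (0.12, adjusted p = 0.0451). In Int nuclei 2419 genes passed with no filter, 1921 with no variance trend, 173 in C5 alone and 2547 (without KO replicate 1) to 4782 with a library left out, and the members numbered 1 with no variance trend, 0 in C5 alone and 1 (without KO replicate 2) to 4 with a library left out. In Late nuclei 4560 genes passed with a minimum mean of 20, and 5 members with no filter and with median centring, where Sod1 (adjusted p = 0.0307 and 0.0136) and Keap1 (0.0321 and 0.00923) passed as lower. Sod2 passed there without WT replicate 1 (-0.14, 0.0455). In C2 alone 0 genes and 0 members passed with limma (2190 genes at an unadjusted p under 0.05). Within C5, 8 (without KO replicate 1) to 329 (without WT replicate 1) genes passed with a library left out, 26 without KO replicate 2 and 10 without KO replicate 3. For the difference of the KO effect between classes, 120 genes passed with a pseudocount of 5, 0 with no filter, 218 with a minimum mean of 20, 199 with quantile normalization, 113 with cyclic loess, 279 with median centring, 206 with no variance trend, 170 with weighting by fragments, 125 with matched nuclei, 11 without shared barcodes and 1017 with the mean-level trend. With a library left out, 0 (without KO replicate 2) to 819 (without WT replicate 3) passed, and at most 3 without any other library. One member, Cat, passed there with a minimum mean of 20, weighting by fragments and the mean-level trend, which makes 1 in each. The cause of these differences was not tested.

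Signs changed as follows, in log2 differences. In all nuclei Cat was -0.094 with median centring and -0.0044 to 0.12 with a library left out, Gpx1 was 0.016 and Sod1 0.0013 with cyclic loess, and Gpx4 was -0.12 with median centring and -0.025 weighted by fragments. In Int nuclei quantile normalization gave 0.019 for Gpx1, 0.034 for Gpx4 and 0.015 for Sod2, and cyclic loess 0.044, 0.051 and 0.015, with 0.014 for Sod1. Matched nuclei gave 0.0014 for Gpx4, 0.029 for Sod2 and 0.017 for Stag2, and Gpx4 was 0.014 without nuclei of high doublet enrichment. C5 alone gave 0.055 for Gpx4, 0.046 for Sod1, 0.21 for Sod2, 0.050 for Keap1 and 0.12 for Stag2. With a library left out Gpx4 was -0.038 to 0.021, Sod2 -0.073 to 0.061 and Stag2 -0.036 to 0.016. In Late nuclei Cat was 0.035 with quantile normalization and 0.040 with cyclic loess. C2 alone gave 0.041 for Prdx2, 0.010 for Cat, -0.23 for Gpx4, 0.47 for Sod1, 0.17 for Txnrd2, 0.014 for Nfe2l2 and 0.61 for Keap1, all with intervals that held 0 but that of Keap1. Within C5, Gpx1 was 0.00048 with quantile normalization, median centring gave -0.0071 for Gpx4, -0.016 for Sod1 and -0.013 for Keap1, and a library left out gave -0.061 to 0.12, -0.076 to 0.12 and -0.052 to 0.12. In the difference between classes Gpx1 was -0.035 with quantile normalization, -0.034 with cyclic loess, -0.0089 with matched nuclei and -0.018 to 0.031 with a library left out. Nfe2l2 was -0.024 weighted by fragments, -0.0040 with matched nuclei and -0.015 to 0.030 with a library left out, and Keap1 was -0.013 to 0.081.

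Replicate numbers recur in both genotypes, and whether they pair the libraries could not be decided with 3 libraries each. Correlations of same-numbered deviations over genes were -0.12, -0.27 and 0.21 in all nuclei, 0.13, -0.08 and 0.19 in Int and 0.09, 0.05 and 0.05 in Late nuclei. Those of different numbers ran from -0.33 to 0.42 in all nuclei and from -0.26 to 0.18 in Int nuclei. In Late nuclei they ran from -0.07 to 0.02, below all same-numbered values. With the replicate block, 7470 genes passed in all nuclei, 4527 in Int, 7982 in Late and 12 in the difference between classes. The block gave Prdx2 in all nuclei an adjusted p of 0.0663 and Keap1 in Int nuclei one of 0.0491.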
